A study of Arabidopsis thaliana with 8 samples.

Results

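The genes described here are the *CYP81F* cytochrome P450 genes of *Arabidopsis thaliana* and 1 gene that stands among them. They are AT4G37400 (*CYP81F3*), AT4G37410 (*CYP81F4*), AT4G37420 and AT4G37430 (*CYP81F1*, listed by RefSeq as *CYP91A2*) on chromosome 4, and AT5G57220 (*CYP81F2*) on chromosome 5. They are 5 of the 31109 genes in the files, and each had 1 of the 39087 transcript models. The value for each gene was the number of RNA-seq reads in the 500-bp window downstream of its annotated 3′ end, the region that the study used to look for transcripts that run past the end of a gene. The genes were selected on measured values, namely the falls of the *CYP81F4* and AT4G37420 windows in *cpsf30-3* compared with WT, and the other *CYP81F* genes were added by name. That contrast is therefore given as a description, without a test.

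Poly(A) RNA of whole 9-day-old seedlings of the Col-0 ecotype was sequenced from 4 lines with 2 replicates each, 8 libraries in all. WT was unmutated Col-0. The *fip37L* line was a *fip37-4* mutant rescued by FIP37 under the promoter of *LEC1*, a gene of embryos, so that FIP37, a subunit of the complex that writes N6-methyladenosine (m6A) on mRNA, is lost after embryogenesis. The *cpsf30-3* line, a T-DNA insertion, lacks the mRNA of the long isoform of the polyadenylation factor CPSF30, which carries the m6A-binding domain, and *cpsf30-1*, another T-DNA insertion, lacks both the long and the short isoform. Each genotype was represented by 1 line. Lines with *fip37-4* were grown on richer medium with sucrose, and whether the other lines shared this medium is not stated in the sources used here, so genotype and medium cannot be told apart for *fip37L*. Nothing in the labels says that replicates came from separate cultures, so p-values measure only the spread between these samples, which may be technical. In whole seedlings, fewer cells of a type and less RNA per cell cannot be told apart.

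Indole glucosinolates are sulfur-rich defence compounds of the cabbage family, made from tryptophan. The CYP81F enzymes add a hydroxyl group to the indole ring of the parent compound, indol-3-ylmethyl glucosinolate. CYP81F1, CYP81F2 and CYP81F3 act at a ring carbon and CYP81F4 at the ring nitrogen, and O-methyltransferases of the IGMT family then convert the products to methoxy forms. CYP81F2 is known for its part in defence against fungi and aphids.

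The label of the group held for 4 of the 5 genes. *CYP81F1*, *CYP81F2*, *CYP81F3* and *CYP81F4* had coding sequences of 1476 to 1506 bp whose translations held the heme-binding signature of P450s. Their coding sequences were 70.2% to 81.7% identical in pairwise alignments, and *CYP81F3* and *CYP81F4* were the closest pair. AT4G37420 had a longer coding sequence, 1767 bp, without that signature. It was 57.2% to 58.7% identical to the other coding sequences and is annotated by RefSeq as a glycosyltransferase family protein, so it is called by its identifier here and not by a *CYP81F* name.

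On the TAIR10.1 assembly all 5 genes lie on the plus strand. *CYP81F3* spans positions 17583992 to 17586442 of chromosome 4, *CYP81F4* 17590772 to 17592920, AT4G37420 17592996 to 17595148 and *CYP81F1* 17597110 to 17598958. These 4 genes span 14967 bp. AT4G37420 begins 75 bp downstream of *CYP81F4*, so 425 of the 500 bases in the *CYP81F4* window lie on AT4G37420, on the same strand. The window of AT4G37420 is free of annotated genes and ends 1461 bp before *CYP81F1*. The *CYP81F3* window is also free. The window of *CYP81F1* has 432 bases on AT4G37435, a gene of the minus strand. *CYP81F2* spans 23187840 to 23189902 of chromosome 5, and 465 bases of its window lie on the next gene of the same strand, AT5G57230, which starts 35 bp further on. No window covers the mRNA of a *CYP81F* gene, so the level of the P450 transcripts themselves was not measured here.

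The sequence at each boundary shows where counting starts, with the last 15 transcript bases in lower case and the first 15 window bases in capitals, 5′ to 3′ on the plus strand, from RefSeq's TAIR10.1 genome. The regions are chr4:17586428-17586457, chr4:17592906-17592935, chr4:17595134-17595163, chr4:17598944-17598973 and chr5:23189888-23189917, in the order of the lines.
CYP81F3: cagcaagaagatgagTATATTATACAAATA
CYP81F4: tgtttattttattttAAATCATGATTAACG
AT4G37420: ggtacattcagaggcCTGGCTACCTTATCT
CYP81F1: tagataatttagattCTTTTTATTGTTAAC
CYP81F2: tttatatatattattATTAAATTTGGATTA
In the 5 windows, each of the 86 stretches of 75 bases taken every 5 bases was found once in the genome as an exact match. Matches with mismatches were not searched. GC content ran from 23.6% in the *CYP81F1* window to 36.2% in the *CYP81F4* window.

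The canonical polyadenylation signal AATAAA was searched on the transcript strand in the last 50 bases of each gene. It was found in *CYP81F4*, starting 25 bases before the annotated end, in *CYP81F1*, at 24 bases, and in *CYP81F2*, at 41 bases. It was not found in that stretch of *CYP81F3* or AT4G37420. Of all 38527 transcript models placed on the assembly, 3567 (9.26%) held it there. The matches are shown with the signal in capitals, at chr4:17592884-17592913, chr4:17598923-17598952 and chr5:23189850-23189879.
CYP81F4: caaaaatcaaccAATAAAagtgtgtttatt
CYP81F1: tcataaataacaAATAAAtaatagataatt
CYP81F2: ttcggatcataaAATAAAaaagttggttat
These matches describe the letters and say nothing of which ends the lines used.

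Libraries held 5862499 to 8411827 counts over all transcript models and 4138533 to 6039296 over 1 window per gene, and 3 counts, taken as the least a library can show, corresponded to 0.530 to 0.722 CPM, the count divided by the scaled library size and multiplied by 1000000. Intervals and this floor cover counting error only, since PCR copies were not marked. The libraries were made with a stranded kit, and the study calls its downstream read density strand-specific in describing another mutant, while the counting option used for these libraries is not named. The counts did not settle it. Of 489 genes lying under downstream windows of both strands, 449 (91.8%) had at least 20 counts in both windows, and the median totals were 310 counts for the same-strand and 798 counts for the opposite-strand window. Of 123 pairs of windows that coincided on opposite strands, 27 had a count ratio of at least 0.9 and 25 a ratio under 0.1. Whether reads of the opposite strand entered a window is therefore not known. Root marker windows, checked because organ shares of a seedling could differ, summed to 271 and 296 CPM (WT), 221 and 239 (*fip37L*), 228 and 258 (*cpsf30-3*) and 232 and 246 (*cpsf30-1*), and 0 to 3 of the 13 markers were at 0 counts in a library. Of the 9 root windows tested, the root hair gene *EXPA7* was called lower (log2 -2.39 ± 0.38) and the beta-glucosidase gene *BGLU21* higher (log2 1.21 ± 0.33) in *fip37L* than in WT, and *BGLU21* higher in *cpsf30-1* than in WT (log2 1.70 ± 0.32). Among all tested windows, 7.10% were called higher and 2.85% lower in *fip37L* than in WT, and 11.0% higher in *cpsf30-1* than in WT. In *cpsf30-1* against *fip37L*, *EXPA7* was called higher (log2 2.56 ± 0.38, adjusted p = 0.0012), with 36 and 32 counts against 5 and 7. In that contrast 10.2% of all tested windows were called higher. Among the tested root windows, those of *PYK10*, *LRX1*, *CASP2* and *SCR* lie on another gene of the same strand. Those of *EXPA7*, *CASP1* and *ABCG6* lie on a gene of the opposite strand. Reads of these other genes may enter the sum, so it is not a measure of root share alone. The part of organ shares in the results below was not tested.

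Reads downstream of the 5 genes were found mainly at *CYP81F4* and AT4G37420. The *CYP81F4* window, which lies largely on the beginning of AT4G37420, held 33 and 47 counts (WT), 4 and 7 (*fip37L*), 1 and 3 (*cpsf30-3*) and 32 and 37 (*cpsf30-1*). WT and *cpsf30-1* overlapped, and both *fip37L* and both *cpsf30-3* libraries lay below every library of those lines. The AT4G37420 window, beyond the other end of that gene, held 29 and 44 counts (WT), 2 and 2 (*fip37L*), 0 and 1 (*cpsf30-3*) and 10 and 16 (*cpsf30-1*). Here WT was highest, *cpsf30-1* lay between, and *fip37L* and *cpsf30-3* were at or below 2 counts, under the floor of 3.

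The other 3 genes gave few reads downstream. The *CYP81F1* window held 0 counts in all 8 libraries. The *CYP81F2* window, for the enzyme of antifungal defence, held 1 and 4 counts (WT), 5 and 8 (*fip37L*), 5 and 5 (*cpsf30-3*) and 4 and 4 (*cpsf30-1*). Its lines lay close together, with both *fip37L* and both *cpsf30-3* libraries above both WT libraries and *cpsf30-1* overlapping WT. The *CYP81F3* window held 50 counts in the first *cpsf30-3* replicate, 1 in the second *cpsf30-1* replicate and 0 in every other library. The 2 *cpsf30-3* replicates thus disagreed, and no difference between lines can be read from it.

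**Figure D1:**
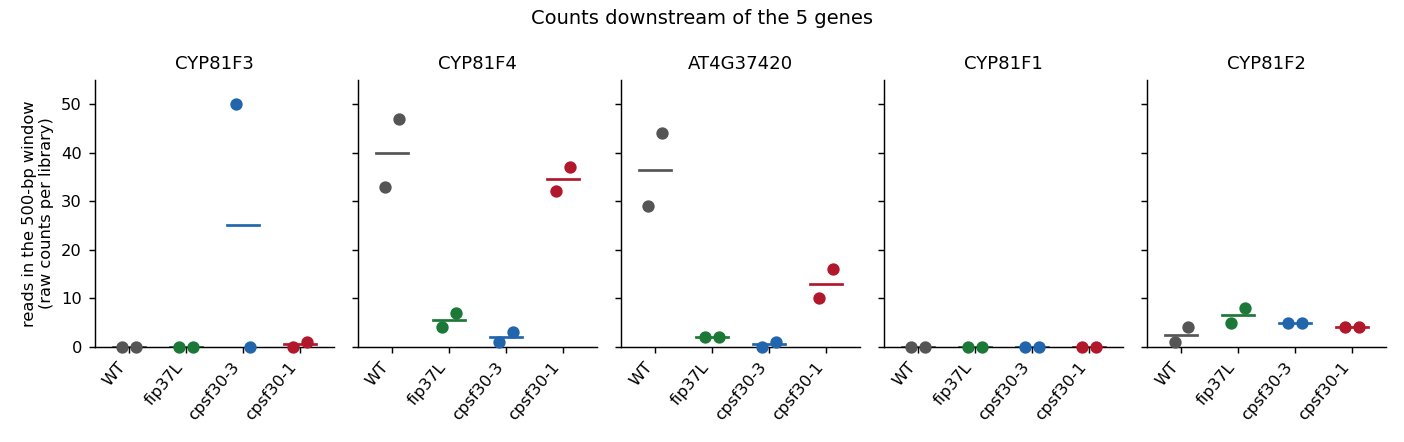
Raw read counts (y axis) in the 500-bp window downstream of each gene, by line (x axis). Points are the 2 replicates and short lines their mean. The *CYP81F4* and AT4G37420 windows are high in WT, *CYP81F1* is at 0 throughout, and the *CYP81F3* mean in *cpsf30-3* rests on 1 library with 50 counts.

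All windows have the same length, so their levels compare directly. In CPM, with scaling by TMM, the *CYP81F4* window stood at 7.91 ± 2.29 in WT, 7.44 ± 0.111 in *cpsf30-1*, 1.20 ± 0.691 in *fip37L* and 0.446 ± 0.356 in *cpsf30-3* (mean ± SD, n = 2 for every value). In that order, WT and *cpsf30-1* did not differ beyond their spread, and the lower *fip37L* library (0.706 CPM) was all but level with the higher *cpsf30-3* library (0.697 CPM). The AT4G37420 window stood at 7.22 ± 2.40 in WT, 2.77 ± 0.590 in *cpsf30-1*, 0.417 ± 0.0905 in *fip37L* and 0.116 ± 0.164 in *cpsf30-3*. The lines came in the same order in both windows, and the lowest levels of AT4G37420 were below the floor. *CYP81F2* ran from 0.501 ± 0.439 in WT over 0.867 ± 0.102 in *cpsf30-1* and 1.07 ± 0.134 in *cpsf30-3* to 1.40 ± 0.737 in *fip37L*.

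The *cpsf30-3* libraries gave the differences on which the choice of genes rested. The *CYP81F4* window had 4 counts in the 2 *cpsf30-3* libraries together and 80 in WT, 18.5-fold fewer after scaling for library size (exact 95% counting interval 6.97 to 69.7). Its *cpsf30-3* libraries, with 1 and 3 counts, lay at or under the floor of 3, so the size of this fold is uncertain. AT4G37420 had 1 count against 73, a ratio of 0.0148 (0.000369 to 0.0849), with the *cpsf30-3* libraries under the floor. The fitted log2 changes were -4.13 ± 0.54 (SE) and -5.77 ± 0.69, and they are descriptions only. With either *cpsf30-3* library left out they were -3.43 and -5.15 for *CYP81F4* and -4.79 and -8.14 for AT4G37420, where the last rests on a library with 0 counts and is no measured fold. Over all 12583 windows tested in this contrast, 0.159% were called lower, that is, at least 2-fold at an adjusted p under 0.05. Outside the choice, the neighbours AT4G37380 and AT4G37440 had log2 changes of 0.78 ± 0.48 and -0.35 ± 0.28.

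Of the 5 windows, *CYP81F4* and AT4G37420 passed the filter on low counts and could be tested. They passed through the lines in which they were high. The windows of *CYP81F1*, *CYP81F2* and *CYP81F3* did not pass. The following p-values are from edgeR's quasi-likelihood test with Benjamini-Hochberg adjustment over 12583 windows.

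The contrast between *cpsf30-1* and *fip37L* asks whether loss of both CPSF30 isoforms and loss of FIP37 differ at these genes. It compares no library on which the choice rested. The filter, scaling and spread came from the fit of all 8 libraries, so it is not fully independent of that choice. Both tested windows were higher in *cpsf30-1*. Both lie along AT4G37420, at its beginning and beyond its end, so they cannot be taken as separate observations. Neither measures the mRNA of *CYP81F4*. The *CYP81F4* window rose by 2.69 ± 0.45 on the log2 scale (adjusted p = 0.0020), from 11 counts to 69 over 2 libraries each. This was a 6.63-fold difference (counting interval 3.49 to 13.9). AT4G37420 rose by 2.70 ± 0.64 (adjusted p = 0.011), from 4 counts to 26, a 6.87-fold difference (2.38 to 27.1), and both *cpsf30-1* libraries lay above both *fip37L* libraries in each window. The *fip37L* libraries lay under the floor at AT4G37420, so the size of its fold is uncertain. Among all tested windows, 10.2% were called higher and 7.70% lower in this contrast. In the same contrast the root hair gene *EXPA7* rose by 2.56 ± 0.38, in a window that overlaps AT1G12570 on the opposite strand. The other 8 root windows tested were not called, and the summed root level overlapped between the lines. Many of these root windows lie on other genes. The part of organ shares in this result was not tested. Without the second *cpsf30-1* replicate the AT4G37420 window was no longer called (log2 2.45, adjusted p = 0.067).

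Against WT, *fip37L* had fewer reads in both windows. *CYP81F4* fell by 2.77 ± 0.44 on the log2 scale (adjusted p = 0.0030), with 11 counts against 80. AT4G37420 fell by 4.06 ± 0.54 (adjusted p = 0.0014), with 4 counts against 73, a 17.6-fold difference (counting interval 6.59 to 66.3). Its *fip37L* libraries lay under the floor, so the size of this fold is uncertain. Of all tested windows, 2.85% were called lower in *fip37L*. This contrast shares the WT libraries with the one behind the choice of genes and gives no independent support for the falls.

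In *cpsf30-1*, the *CYP81F4* window overlapped WT, and the AT4G37420 window was lower. *CYP81F4* had 69 counts against 80 in WT, with a log2 change of -0.08 ± 0.33 (adjusted p = 0.88, 95% interval -0.99 to 0.82), so that a change of nearly 2-fold lower was within the error. AT4G37420 had 26 counts against 73 and fell by 1.36 ± 0.38 (adjusted p = 0.032), a 2.56-fold difference (counting interval 1.62 to 4.17), where 2.57% of all tested windows were called lower. The call of AT4G37420 was lost with DESeq2 (adjusted p = 0.32) and without the second WT, the first *cpsf30-1* or the second *cpsf30-1* replicate (adjusted p = 0.23, 0.18 and 0.10). WT libraries are shared here too.

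**Figure D2:**
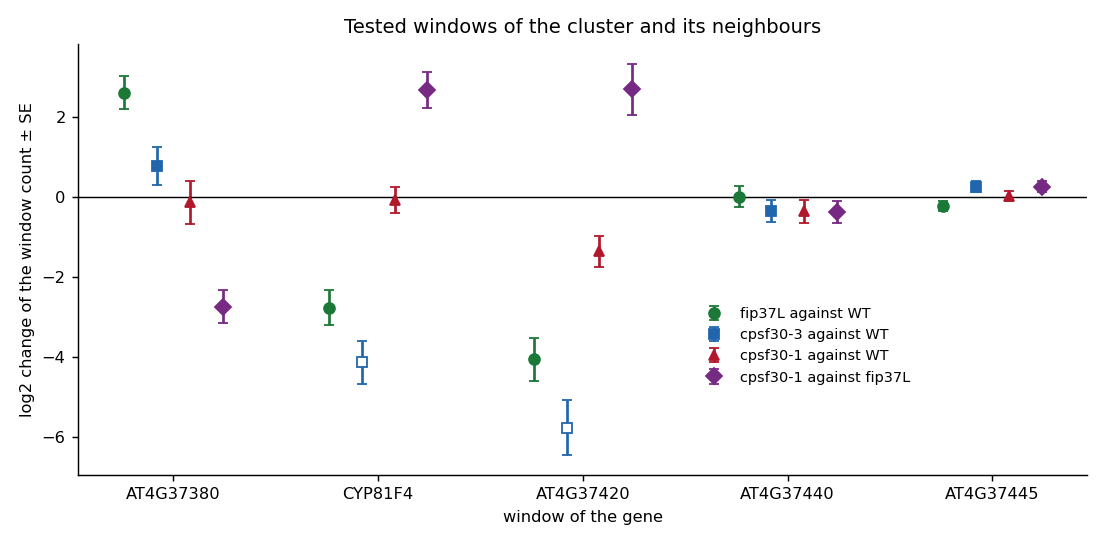
Log2 change of the window count (y axis, ± SE) of the tested windows of the cluster and its neighbours (x axis) in 4 contrasts. Open symbols mark the contrast behind the choice of the genes, which carries no test. *CYP81F4* and AT4G37420 lie at 2.69 and 2.70 in *cpsf30-1* against *fip37L*, while AT4G37440 and AT4G37445 stay near 0.

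Since both windows lie along AT4G37420, at its beginning and beyond its end, their counts were set against each other. The AT4G37420 window held 0.879 and 0.936 times the counts of the *CYP81F4* window in the WT libraries, and 0.312 and 0.432 times in *cpsf30-1*. Summed over replicates the ratio was 0.912 in WT (counting interval 0.655 to 1.27) and 0.377 in *cpsf30-1* (0.230 to 0.599). These intervals did not overlap, although they cover counting error only. Only replicate pairs stand behind them, and the difference itself was not tested over samples. The WT counts of these windows also took part in the choice of genes, so the WT ratio is not independent of it. In *fip37L* the ratio was 0.364 (0.0844 to 1.23) and in *cpsf30-3* 0.250 (0.00508 to 2.53). At 15 and 5 counts in all, these could not be told from the WT or the *cpsf30-1* ratio.

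The *CYP81F3* reads of the first *cpsf30-3* replicate had a counterpart. The window of AT4G37409, a gene of the minus strand that lies over almost all of *CYP81F4* and whose window stops 3 bp short of the *CYP81F4* start, held 50 counts in the same library, 1 in the first *fip37L* replicate and 0 elsewhere. The 2 windows are 3326 bp apart and share no base. Among all pairs of neighbouring windows at least 1000 bp apart, 2 pairs had equal counts of at least 20 in 1 library and at most 2 in the others, and both were in this library. It also held 7 of the 9 windows in the whole series with at least 20 counts in 1 library and at most 2 in each of the others. The positions of the reads were not used here, and what gave equal counts was not tested.

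**Figure D3:**
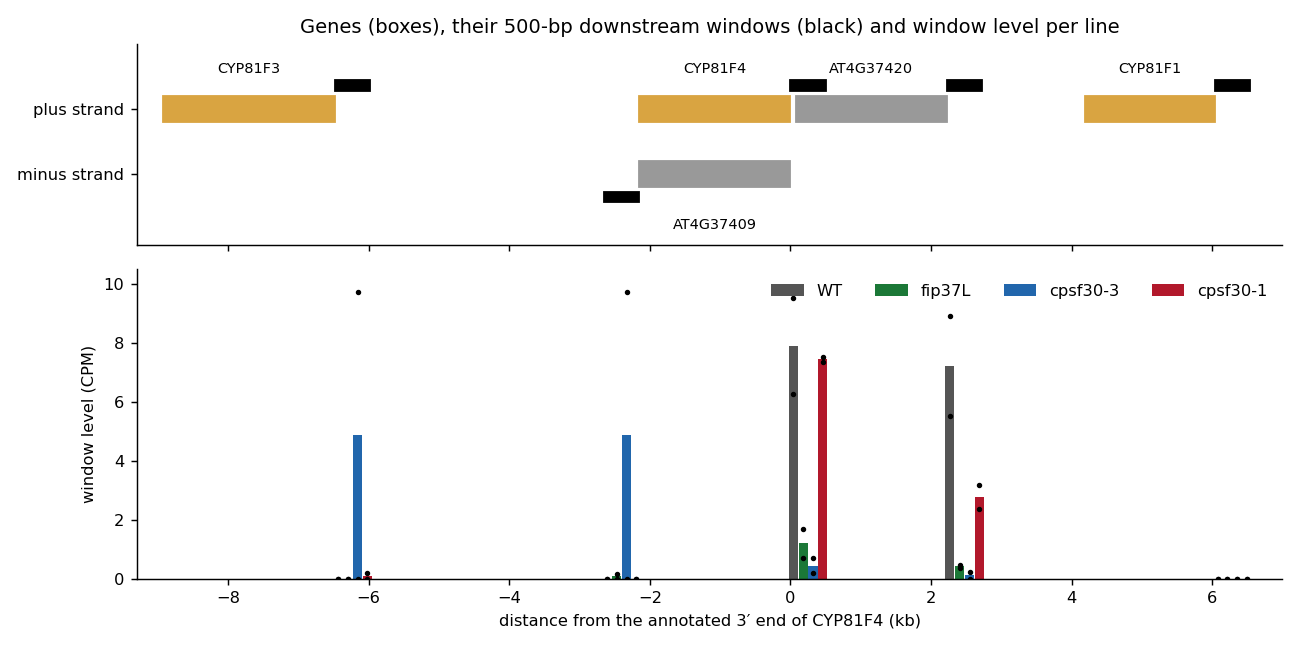
Map of the chromosome 4 genes by distance from the annotated 3′ end of *CYP81F4* (x axis, kb), with P450 genes in orange, other genes in grey and the 500-bp windows in black, above the level of each window (y axis, CPM). Bars are means of 2 replicates by line and dots the replicates. The *CYP81F4* window lies mostly on AT4G37420, and both windows are lower in *fip37L* and *cpsf30-3* than in WT.

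Windows on either side of the cluster were read for comparison. Upstream, AT4G37380, a tetratricopeptide repeat protein gene, held 8 and 17 counts (WT), 109 and 44 (*fip37L*), 22 and 18 (*cpsf30-3*) and 7 and 14 (*cpsf30-1*). It was higher in *fip37L* than in WT (log2 2.61 ± 0.41, adjusted p = 0.0028), where 7.10% of all tested windows were called higher, and lower in *cpsf30-1* than in *fip37L* (log2 -2.74 ± 0.42, adjusted p = 0.0014). Its window has 428 bases on AT4G37370 (*CYP81D8*), a P450 gene of another CYP81 subfamily on the same strand. The window of *BRU6* (AT4G37390), which encodes a GH3 enzyme that conjugates auxin to amino acids, was at 0 counts in every library. Downstream, AT4G37440 held 25 to 49 counts and AT4G37445 held 202 to 424 counts over the 8 libraries, and neither was called in any contrast. Their windows overlap each other's gene on opposite strands. *AGP18* (AT4G37450), an arabinogalactan protein gene, held 2 to 6 counts and did not pass the filter.

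The wider pathway was followed in gene lists, again by downstream windows and not by mRNA levels. Of 26 genes of indole glucosinolate synthesis, regulation, transport and breakdown, 16 windows were tested. In *cpsf30-1* against *fip37L*, 2 of the 16 rose and 1 fell, beside 10.2% called higher and 7.70% lower among all tested windows, with a median log2 change of 0.03 beside -0.01 over all tested windows. In *cpsf30-1* against WT, 1 of the 16 rose and 1 fell, beside 11.0% called higher and 2.57% lower among all tested windows. The median was 0.03 beside -0.03. *TGG1*, a myrosinase that breaks glucosinolates down, had 1 and 1 counts (WT), 3 and 4 (*fip37L*), 4 and 3 (*cpsf30-3*) and 64 and 78 (*cpsf30-1*). Its window, free of other genes, was higher in *cpsf30-1* (log2 4.37 ± 0.33 against *fip37L*, adjusted p = 4.4e-05, and 6.11 ± 0.40 against WT, adjusted p = 3e-05). Summed counts were 77.9-fold those of WT, with a counting interval of 21.2 to 649. The WT counts lay under the floor of 3, so the size of this fold is uncertain. *SOT16*, the sulfotransferase of the last step of the core pathway, was lower in *cpsf30-1* than in *fip37L* (log2 -1.77 ± 0.19, adjusted p = 0.00026) and than in WT (log2 -1.08 ± 0.19, adjusted p = 0.0046), in a window that overlaps *SOT18* on the opposite strand. The regulator gene *MYB34*, named after its values were seen because its counts were below the rule's minimum, also rose, with 14 and 11 counts in *cpsf30-1* and 2 and 3 in *fip37L*, but not with DESeq2 (adjusted p = 0.16).

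The methyltransferase genes that act after the CYP81F enzymes did not pass the test in any contrast. *IGMT1*, *IGMT2*, *IGMT4* and *IGMT5* were tested. *IGMT4* had 41 and 38 counts (WT), 111 and 15 (*fip37L*), 34 and 46 (*cpsf30-3*) and 24 and 27 (*cpsf30-1*). The *fip37L* replicates of *IGMT4* lay on either side of all other libraries. *IGMT5*, reported to methylate the product of CYP81F4, had 15 and 10 counts (WT), 4 and 4 (*fip37L*), 5 and 10 (*cpsf30-3*) and 13 and 9 (*cpsf30-1*). In *fip37L* against WT, the indole list had 1 rise, *GSTF9* (log2 1.22 ± 0.35, adjusted p = 0.036), a glutathione transferase gene, and 0 falls, beside 7.10% called higher and 2.85% lower among all tested windows. Of its 16 windows, 8 had an unadjusted p under 0.05, and DESeq2 called 0. The median was 0.40 beside 0.03 over all tested windows.

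Aliphatic glucosinolates are made from methionine and do not need the CYP81F enzymes. Of the 26 aliphatic genes in the files, 15 windows were tested. In *cpsf30-1* against *fip37L*, 5 fell and 1 rose, beside 7.70% called lower and 10.2% higher among all tested windows, and the median was -0.84 beside -0.01 over all tested windows. *BAT5*, a transporter of the chloroplast envelope, fell by 1.84 ± 0.30 (adjusted p = 0.0019), and *SOT18*, another sulfotransferase, by 1.28 ± 0.11 (adjusted p = 8.5e-05). The windows of *SOT18* and *SOT16* lie on each other's gene, on opposite strands, so their falls cannot be taken as separate observations. *FMO_GS-OX3*, a side chain oxygenase, fell by 1.83 ± 0.60 (adjusted p = 0.041), while *FMO_GS-OX5*, of the same family, rose by 1.62 ± 0.25 (adjusted p = 0.0014). The other windows that fell, named after their values were seen, were *GSTU20* (log2 -1.16 ± 0.31, adjusted p = 0.018) and the regulator *MYB76* (log2 -2.35 ± 0.74, adjusted p = 0.035). DESeq2 called 4 of the 6 windows and lost *FMO_GS-OX3* (adjusted p = 0.11) and *MYB76* (adjusted p = 0.12). Against WT, *BAT5* fell in *cpsf30-1* (log2 -1.16 ± 0.31, adjusted p = 0.027) and 0 windows rose, where 2.57% of all tested windows were called lower and 11.0% higher. In that contrast 5 aliphatic windows had an unadjusted p under 0.05 and DESeq2 called 0. In *fip37L* against WT, edgeR and DESeq2 called 0 of the 15, beside 7.10% called higher and 2.85% lower among all tested windows. Of the 15, 4 had an unadjusted p under 0.05.

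Camalexin is another defence compound derived from tryptophan, and 3 of the 6 genes listed for it or for related compounds had tested windows. The window of *CYP71A13*, which acts at an early step, had 30 and 43 counts (WT), 2 and 2 (*fip37L*), 53 and 21 (*cpsf30-3*) and 26 and 41 (*cpsf30-1*). It was lower in *fip37L* than in WT (log2 -4.06 ± 0.60, adjusted p = 0.0023) and higher in *cpsf30-1* than in *fip37L* (log2 4.05 ± 0.60, adjusted p = 0.0012). Of all tested windows, 2.85% were called lower in the first contrast and 10.2% higher in the second. The *fip37L* counts lay under the floor of 3, so the size of both folds is uncertain. The *cpsf30-3* libraries of the *CYP71A13* window overlapped WT. The *CYP71A13* window overlaps AT2G30766 on the opposite strand. *CYP71B6* was lower in *cpsf30-1* than in WT (log2 -1.02 ± 0.24, adjusted p = 0.015), beside 2.57% of all tested windows called lower. This call was lost with DESeq2 (adjusted p = 0.12).

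Of 13 other *CYP81* genes, 8 windows were tested and 2 were called in *cpsf30-1* against *fip37L*, 1 lower and 1 higher, beside 7.70% and 10.2% of all tested windows. *CYP81G1* fell by 1.98 ± 0.36 (adjusted p = 0.0032), in a window opposite *MYBR1* that held 3092 and 902 counts in *fip37L* and 341 and 573 in *cpsf30-1*. *CYP81D1* rose by 1.29 ± 0.34 (adjusted p = 0.016), from 10 and 8 counts to 20 and 22. Both were also called in *fip37L* against WT, *CYP81G1* higher (log2 1.61 ± 0.35, adjusted p = 0.012) and *CYP81D1* lower (log2 -1.12 ± 0.34, adjusted p = 0.043), beside 7.10% and 2.85% of all tested windows. DESeq2 lost *CYP81D1* in both contrasts (adjusted p = 0.20 and 0.39). In *cpsf30-1* against WT, 0 of 8 were called by edgeR or DESeq2, beside 11.0% called higher and 2.57% lower among all tested windows. Of the 8, 1 had an unadjusted p under 0.05. In *cpsf30-3* against WT, 0 of the 42 tested windows of the 4 lists were called by edgeR or DESeq2, against 1.33% called higher and 0.159% lower among all tested windows. Of these, 2 indole, 5 aliphatic, 1 camalexin and 1 *CYP81* window had an unadjusted p under 0.05.

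**Figure D4:**
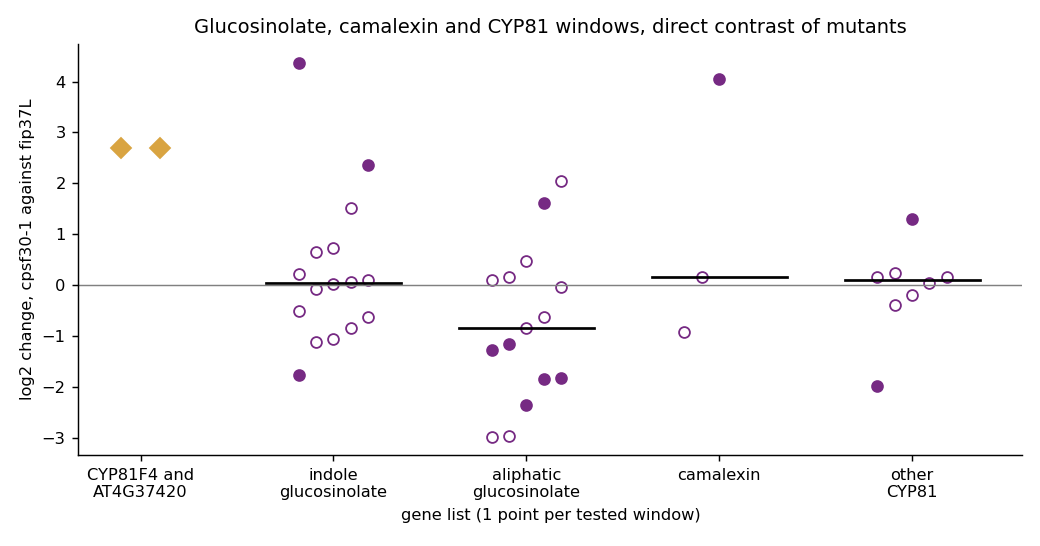
Log2 change of the window count in *cpsf30-1* against *fip37L* (y axis) of *CYP81F4* and AT4G37420 (diamonds) and of the tested windows of 4 gene lists (x axis, 1 circle per window). Filled circles were called, and black lines are list medians. The medians run from -0.84 in the aliphatic to 0.15 in the camalexin list.

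The windows whose levels most resembled those of *CYP81F4* were ranked by Pearson correlation of log2(CPM + 1) over the 8 libraries, leaving out the surrounding region. These points share 4 lines and 1 normalization, so the values are descriptions. The highest were *RLP57* (AT5G65830, r = 0.981), AT5G38510 (r = 0.975), AT1G16570 (r = 0.970), AT4G30030 (r = 0.968) and *PRPL28* (AT2G33450, r = 0.960), compared with 0.935 for AT4G37420 itself. *RLP57*, a receptor-like protein gene, had 33 and 33 counts (WT), 19 and 14 (*fip37L*), 13 and 14 (*cpsf30-3*) and 31 and 35 (*cpsf30-1*). WT and *cpsf30-1* were the higher lines here too, by a smaller factor. A high correlation did not require a large difference, as AT1G16570 ran only from 96.7 to 108 CPM over the 8 libraries, while AT5G38510 ran from 1.36 to 5.77, AT4G30030 from 11.3 to 24.5 and *PRPL28* from 11.8 to 27.2. All 5 windows overlap another annotated gene.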

How the data were processed

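The deposited values are raw counts of reads in the 500-bp window downstream of each transcript model, 1 table per library, not normalized. Per the labels and methods, the authors filtered out organellar and ribosomal RNA reads with Bowtie2 2.3.4, mapped the rest to TAIR10 with TopHat2 2.0.7 and counted with BEDTools (version and strand option not named, although the kit was stranded and the study calls its downstream density strand-specific). Replicates were not pooled, and no gene body counts were used here.

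The members and gene lists were chosen with earlier results of these data known. For each gene the lowest-numbered model was used. Windows, sequences and overlaps come from RefSeq's TAIR10.1 annotation, whose 3′ ends can differ from the authors'. Of 31109 windows, 6760 (21.7%) were at 0 in all libraries.

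All 8 libraries entered 1 fit of 4 groups in R 4.3.3 with edgeR 4.0.16 (TMM, quasi-likelihood test, two-sided, Benjamini-Hochberg adjustment). edgeR's filter by group kept 12583 windows. A window was called at an adjusted p under 0.05 and at least 2-fold. The fit was tested on simulated data. The interval of a log2 change uses its SE and 4 residual degrees of freedom. Ratios of summed counts have exact (Clopper-Pearson) 95% intervals from Python 3.11.15 and scipy 1.17.1, coding sequences were aligned with Biopython 1.88, and CPM uses TMM-scaled library sizes. Beside the 5 genes, the text names every gene from AT4G37380 to AT4G37450, per list and contrast at most the 4 called windows of largest change with non-overlapping groups and, in the higher group, 20 or more counts on average, and the 5 windows most correlated with that of AT4G37410. Alternatives were library size scaling, DESeq2 1.42.0, no filter, a mean of at least 20 counts, the 2 compared groups alone, a replicate block, all transcript models, and leaving out each library, which leaves 1 library assumed to vary like the others.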

Additional observations from a re-analysis of the deposited data

How the results depend on the processing

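The tested calls of *CYP81F4* kept their direction and side of the threshold under all 11 alternatives for each of its contrasts with *fip37L*, with log2 changes of -3.43 to -2.21 against WT and 2.12 to 3.35 for *cpsf30-1* against *fip37L*. The contrast of *fip37L* with WT reuses WT libraries that took part in the choice of genes, so its stability gives no independent support. A mean of at least 20 counts removed AT4G37420 from the fit, so that 1 window was called in *fip37L* against WT, 1 in *cpsf30-1* against *fip37L* and 0 in *cpsf30-1* against WT, and 1 was at least 2-fold lower in *cpsf30-3*. In *cpsf30-1* against WT, DESeq2 called 0 of these windows. Leaving out 1 library at a time gave 0 to 1 calls in *cpsf30-1* against WT and 1 to 2 in *cpsf30-1* against *fip37L*. With *fip37L* against WT, the pathway lists had 4 calls, which became 10 without a filter, 2 with the compared groups alone, 2 with DESeq2, and 1 to 4 with a library left out (1 without the first and 2 without the second WT replicate). With *cpsf30-3* against WT they had 0, which became 5 without a filter and 4 with the compared groups alone. With *cpsf30-1* against WT they had 4, which became 7 without a filter, 2 with DESeq2, and 2 with any 1 library of either line left out. With *cpsf30-1* against *fip37L* they had 12, which became 7 at a mean of at least 20 counts, 18 without a filter, 8 with DESeq2 and 8 to 12 with a library left out (8 with the first or the second *cpsf30-1* replicate left out). More windows were tested without a filter, and the cause of the other changes was not tested. Replicate numbers did not pair the samples (correlations of same-numbered deviations from -0.0894 to 0.0436), and the replicate block kept every call of *CYP81F4* and AT4G37420, with 3 pathway calls in place of 4 in *fip37L* against WT. Depth limits all 5 windows: AT4G37420 held 0 to 2 counts a library in *fip37L* and *cpsf30-3*, and *CYP81F1*, *CYP81F2* and most *CYP81F3* libraries, at 0 to 8 counts, allow no comparison.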
